A study of Mus musculus with 16 samples.

Results

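A set of 8 genes of lipid uptake and lipid handling was followed across the aorta libraries of 2 mouse strains. They are the scavenger receptors Olr1, Cd36 and Msr1, the lipid-associated macrophage genes Trem2 and Gpnmb, and the lipid carrier and efflux genes Apoe, Abca1 and Abcg1. These 8 genes were taken by symbol from the 52636 genes of the count table. All 8 were among the 17125 genes with enough counts to be tested. They were chosen by gene symbol, with the CPM levels and AngII effects of all 4 groups known, so their values, folds and adjusted p describe these libraries and are no independent support for a direction.

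The tissue was whole descending thoracic aorta, and total RNA was sequenced in 16 libraries. The groups were C57BL/6J control, C57BL/6J with AngII, 129S6/SvEvTac control and 129S6/SvEvTac with AngII, with 4 libraries in each. AngII is angiotensin II, a vasoconstrictor peptide used to raise blood pressure, and the series title places the work in hypertensive remodelling of the mouse aorta. The sources used here give no dose, duration, age or sex and do not state that each library came from its own animal, so the spread between libraries may be in part technical.

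Scavenger receptors are cell surface proteins that bind modified lipoproteins and debris and carry them into macrophages and endothelial cells. Macrophages that have taken up lipid turn on a programme in which TREM2 senses lipid ligands, lysosomal enzymes digest the cargo, and ABCA1 and ABCG1 pass cholesterol on to apolipoprotein acceptors such as APOE. Several of these genes are also expressed outside macrophages: CD36 is a fatty acid transporter of adipocytes and capillary endothelium, and APOE is made by many cell types.

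Library totals ran from 42116120 to 61381134 counts in 15 libraries, and 129S6/SvEvTac AngII replicate 5 had 121573945. The 10 smooth muscle markers were abundant with a mean log2 CPM (counts scaled to a common library total) between 9.59 and 11.6 in every library. In C57BL/6J libraries with AngII, 13 of 14 pan-macrophage markers and 13 of 14 adipocyte markers rose and all 10 smooth muscle markers fell against C57BL/6J controls. Of all genes, 21.8% were called higher there and 17.1% lower. In 129S6/SvEvTac none of these 38 markers was called by edgeR, beside 12.2% of all genes. DESeq2 gave the same on all 3 lists, and limma voom called 1 smooth muscle marker higher. At an unadjusted p under 0.05, 2 pan-macrophage markers were higher in 129S6/SvEvTac and no adipocyte marker was. In whole tissue, more cells of a type and more RNA per cell cannot be told apart.

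In C57BL/6J, 7 of the 8 genes rose with AngII (6 of 7 without Olr1, which passed the count filter only through this group), by 2.23-fold for Abca1 to 8.01-fold for Cd36, and from 9 to 1524 counts in all for Olr1. Gpnmb was level. The AngII libraries of these 7 genes all lay above all controls, as they did for 19.2% of all genes. In 129S6/SvEvTac 1 of 8 was called, Msr1, at 1.82-fold. For comparison, edgeR's quasi-likelihood test with Benjamini-Hochberg adjustment over all genes called 21.8% of all genes higher in C57BL/6J and 7.71% higher in 129S6/SvEvTac. The effect of AngII differed between the strains for 2 of 8, Msr1 and Trem2, beside 5.34% of all genes with a larger effect in C57BL/6J. This is not particular to them: the effect was also larger there for 12 of 14 pan-macrophage markers, and for 0 of 14 adipocyte markers. It was lower there for 9 of 10 smooth muscle markers, beside 4.62% of all genes. The median log2 fold change of the 8 was 2.41 in C57BL/6J and 0.65 in 129S6/SvEvTac, where the medians of all genes were 0.01 and 0.00.

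**Figure D1:**
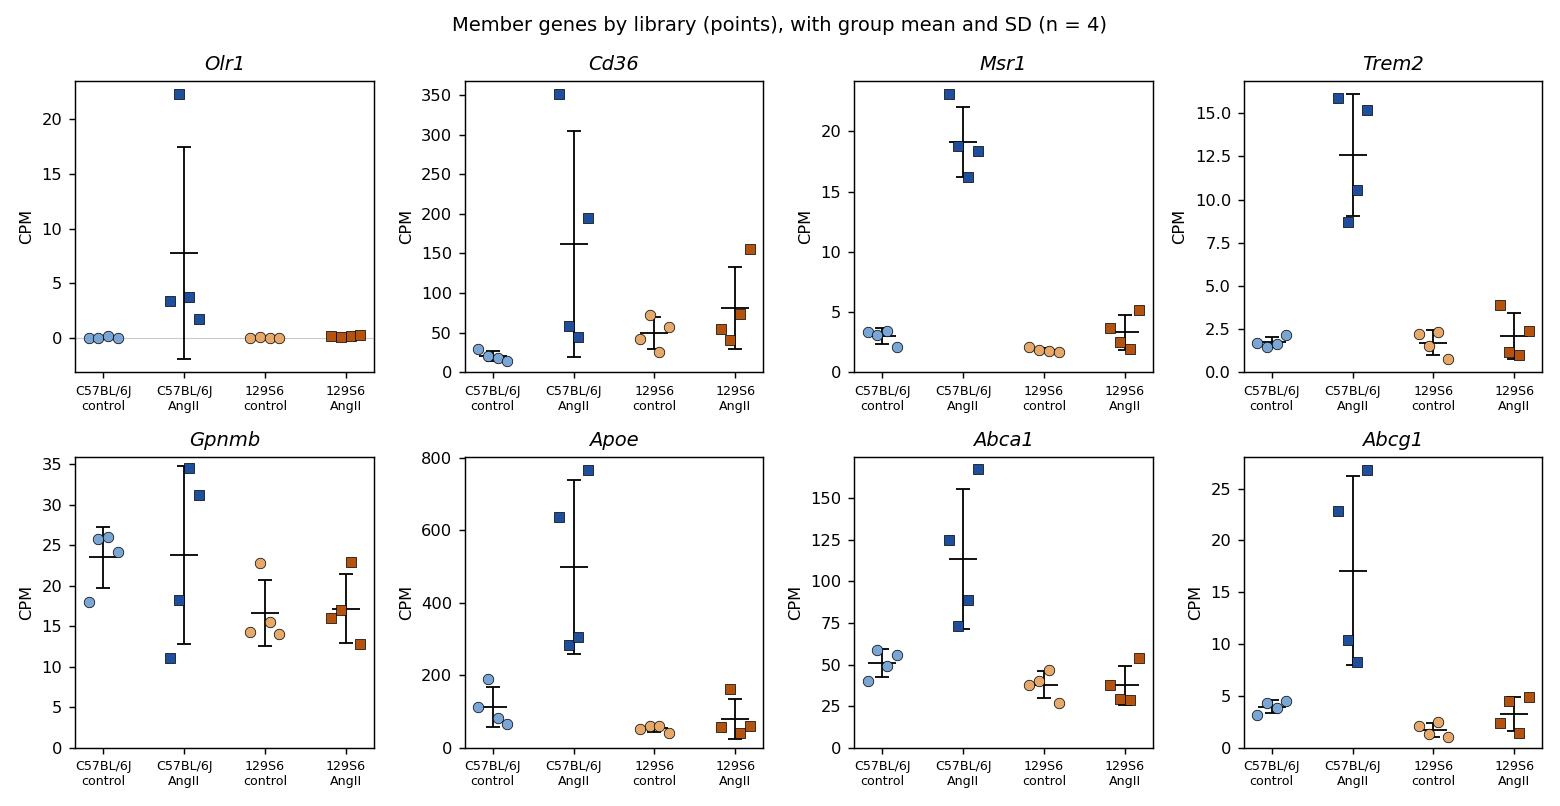
Level of each gene in CPM (vertical axis, one scale per gene) in every library of the 4 groups, with points for libraries and bars for the group mean and SD (n = 4). In C57BL/6J all AngII libraries lie above all controls for every gene but Gpnmb, and Olr1 has 1 AngII library at 22.3 CPM far above the other 3.

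The sequences before the start of transcription are shown for all 6 of the 8 genes that RefSeq (GRCm38.p6) gave a window for; 5 of these rose in C57BL/6J and Gpnmb did not. Printed are the 250 bases before the RefSeq start, 5′ to 3′ on the gene's strand: chr6:129507166-129507415 (minus) for Olr1, chr17:48346151-48346400 (plus) for Trem2, chr4:53159896-53160145 (minus) for Abca1, chr5:17835897-17836146 (minus) for Cd36, chr7:19699189-19699438 (minus) for Apoe and chr6:49036268-49036517 (plus) for Gpnmb. Capitals mark letters that match a loose form of the AP-1 motif (TGANTCA) in Olr1 and Trem2 and an E-box (CACGTG) in Abca1. The loose form allows any base at the centre, where the usual AP-1 motif has C or G, as Olr1 does and Trem2 does not.
Olr1: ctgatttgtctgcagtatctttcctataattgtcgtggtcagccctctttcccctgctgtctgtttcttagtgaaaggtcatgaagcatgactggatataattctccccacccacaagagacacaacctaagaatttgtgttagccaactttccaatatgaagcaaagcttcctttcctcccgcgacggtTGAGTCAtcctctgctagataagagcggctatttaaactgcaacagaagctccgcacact
Trem2: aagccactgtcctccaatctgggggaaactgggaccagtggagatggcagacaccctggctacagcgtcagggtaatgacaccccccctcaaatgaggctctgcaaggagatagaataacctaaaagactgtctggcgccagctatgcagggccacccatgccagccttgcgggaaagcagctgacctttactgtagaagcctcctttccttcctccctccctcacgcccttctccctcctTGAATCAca
Abca1: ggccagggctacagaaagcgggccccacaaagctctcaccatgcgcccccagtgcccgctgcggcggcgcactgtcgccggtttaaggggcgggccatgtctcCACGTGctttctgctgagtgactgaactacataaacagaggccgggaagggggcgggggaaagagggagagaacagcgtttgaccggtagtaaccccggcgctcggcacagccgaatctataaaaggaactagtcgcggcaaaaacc
Cd36: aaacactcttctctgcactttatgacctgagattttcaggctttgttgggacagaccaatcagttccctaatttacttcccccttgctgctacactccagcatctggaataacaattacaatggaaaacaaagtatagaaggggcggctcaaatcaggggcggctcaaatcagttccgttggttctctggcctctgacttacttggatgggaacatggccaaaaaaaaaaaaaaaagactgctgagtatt
Apoe: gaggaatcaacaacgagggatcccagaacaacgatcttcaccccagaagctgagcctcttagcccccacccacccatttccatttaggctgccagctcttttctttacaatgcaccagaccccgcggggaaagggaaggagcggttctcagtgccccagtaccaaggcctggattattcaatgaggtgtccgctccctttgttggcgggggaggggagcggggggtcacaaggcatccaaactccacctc
Gpnmb: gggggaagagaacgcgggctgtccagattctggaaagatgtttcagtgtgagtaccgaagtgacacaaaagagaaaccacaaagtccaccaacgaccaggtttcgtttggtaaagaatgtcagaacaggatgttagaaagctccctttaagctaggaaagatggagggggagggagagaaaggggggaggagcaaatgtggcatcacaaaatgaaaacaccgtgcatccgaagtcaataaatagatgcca
The AP-1 match TGAGTCA of Olr1 spans bases 60 to 54 before the start, and the match TGAATCA of Trem2, to the loose form only, spans bases 9 to 3. The E-box of Abca1 spans bases 147 to 142. Both strands were searched, and 6.75% of 32851 RefSeq windows of this length held the loose AP-1 letters and 6.02% the E-box letters. The other motifs searched were PU.1 (GAGGAAGT, in 2.44% of windows), the LXR DR4 element (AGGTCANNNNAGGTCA, in 0.0152%), C/EBP (TTGCNNAA, in 9.56%) and the sterol element (TCACNCCAC, in 1.05%). The 6 windows held none of these exact letters. For LXR only a perfect repeat of AGGTCA counted as a match, and no looser form was searched. The search therefore cannot say whether Abca1 or the other windows hold an LXR element with other letters. The windows of Cd36 and Apoe, which rose, and of Gpnmb, which did not, matched no motif searched. For Cd36 and Gpnmb, the bases just after the RefSeq start were not found in the first part of a GENCODE transcript. The Cd36 window lies inside the annotated gene, and that of Gpnmb ends before the annotated gene start. Apoe had 3 windows, and the 1 nearest the annotated start is printed. Whether these windows hold the promoters in use was not tested. A match says only that these letters are present.

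Olr1 encodes LOX-1, the receptor for oxidised low-density lipoprotein of endothelial cells and macrophages (ENSMUSG00000030162.14, GRCm38 chr6:129485244-129507165, minus strand). It was near the limit of detection in controls: C57BL/6J control replicates 1, 2, 3 and 5 had 0, 0, 9 and 0 counts. With AngII, replicates 1, 2, 3 and 5 had 170, 1030, 221 and 103 counts, which is 3.42, 22.3, 3.79 and 1.73 CPM. All 4 AngII libraries lay above all 4 controls, and replicate 2 held most of the counts of the group. The fitted log2 fold change was 7.39 ± 1.21 (SE, adjusted p = 0.00023), and without AngII replicate 2 it was 5.99 (adjusted p = 0.0013). Olr1 had enough counts to be tested only through C57BL/6J with AngII, the group where it is high, so its test and its place in the counts of genes called there were fixed in part by that filter. The fitted value rests on the 9 counts of control replicate 3: without that library the control group is at 0 and the fitted value of 11.71 is no measure of fold.

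In 129S6/SvEvTac, Olr1 had 5 counts in control replicate 2 and 0 in replicates 1, 3 and 4. AngII replicates 1, 2, 4 and 5 had 9, 5, 9 and 35 counts, or 0.203, 0.126, 0.198 and 0.306 CPM. These libraries lay above the controls too, as for 12.4% of all genes, but the log2 fold change of 2.95 ± 1.31 did not pass the threshold (adjusted p = 0.17). The mean with AngII was 7.81 CPM ± 9.70 in C57BL/6J and 0.208 ± 0.074 in 129S6/SvEvTac (SD, n = 4 each). Between the strains, the AngII effects of Olr1 differed by a value that did not pass (4.43 ± 2.14 on the log2 scale, adjusted p = 0.21).

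Msr1 encodes the class A macrophage scavenger receptor, which binds acetylated and oxidised lipoproteins (ENSMUSG00000025044.16, chr8:39581685-39642673, minus strand). In C57BL/6J controls it was at 3.37, 3.11, 3.43 and 2.07 CPM in replicates 1, 2, 3 and 5, and with AngII at 23.1, 18.8, 16.2 and 18.3 CPM. The AngII libraries agreed closely, and all lay well above the controls. The rise was 6.38-fold (log2 2.67 ± 0.27, adjusted p = 3.9e-06). In 129S6/SvEvTac the control values were 2.06, 1.84, 1.71 and 1.64 CPM in replicates 1 to 4, and AngII values were 3.63, 2.47, 1.89 and 5.15 CPM in replicates 1, 2, 4 and 5. The 129S6/SvEvTac groups overlapped: AngII replicate 4 lay below control replicate 1. The log2 fold change of 0.87 ± 0.26 passed narrowly (adjusted p = 0.040), and leaving out any 1 of 11 of the 16 libraries ended that call; without AngII replicate 5 it was 0.53 (adjusted p = 0.17). The difference of the 2 effects was 1.81 ± 0.36 on the log2 scale (adjusted p = 0.0078).

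Cd36 encodes the class B scavenger receptor and fatty acid translocase (ENSMUSG00000002944.15, chr5:17781690-17888801, minus strand). C57BL/6J controls had 28.9, 20.5, 17.2 and 14.2 CPM in replicates 1, 2, 3 and 5, and AngII libraries 351, 57.8, 44.6 and 194 CPM. All AngII libraries were above the controls, but they were far apart among themselves, with replicates 1 and 5 highest. The log2 fold change was 3.002 ± 0.62 (adjusted p = 0.0013), and it was 2.32 without AngII replicate 1 (adjusted p = 0.0044). In 129S6/SvEvTac the controls had 42.2, 72.1, 25.0 and 57.2 CPM and the AngII libraries 54.0, 40.7, 73.7 and 156 CPM. These groups overlapped (log2 0.72 ± 0.57, adjusted p = 0.48), and the 129S6/SvEvTac control mean of 49.1 CPM ± 20.2 stood beside 20.2 ± 6.36 in C57BL/6J (SD, n = 4 each). The difference of the AngII effects was 2.28 ± 0.82 (adjusted p = 0.091).

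Cd36 went with the adipocyte markers from library to library. The mean log2 CPM of the 14 adipocyte markers was 7.91, 5.05, 3.67 and 6.74 in C57BL/6J AngII replicates 1, 2, 3 and 5, the same order as Cd36. It ranged from 2.65 to 4.56 in C57BL/6J controls, 3.48 to 5.54 in 129S6/SvEvTac controls and 4.53 to 6.46 in 129S6/SvEvTac with AngII, and none of the 14 markers was at 0 in all libraries. Over the 16 libraries, which share treatment groups and tissue, log2 CPM of Cd36 had Pearson r = 0.97 with that mean and 0.55 with the pan-macrophage mean, given as a description. With the adipocyte mean as a covariate the C57BL/6J effect of Cd36 was 0.72 ± 0.22 (adjusted p = 0.029). Without C57BL/6J AngII replicates 1 and 5 together it was 1.33 ± 0.49 (adjusted p = 0.058).

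**Figure D2:**
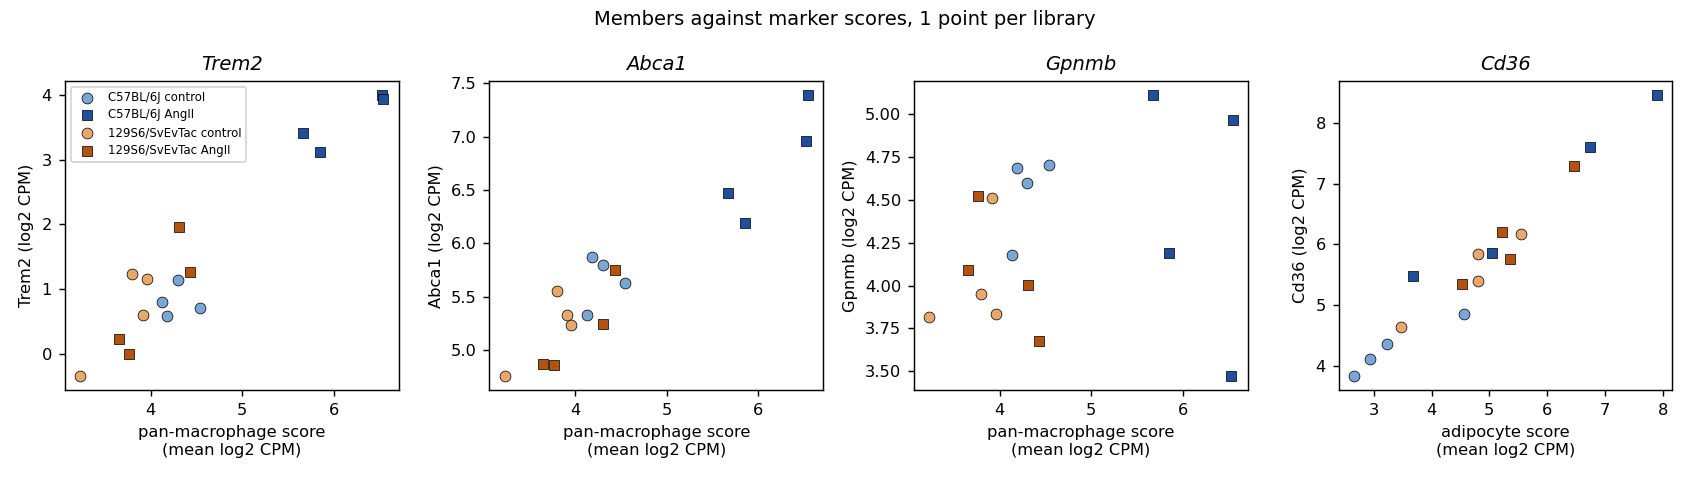
log2 CPM of Trem2, Abca1, Gpnmb and Cd36 (vertical axes) against the mean log2 CPM (score) of the 14 pan-macrophage markers, or for Cd36 of the 14 adipocyte markers, in the same library (horizontal axes), 1 point per library coloured by group. Trem2 and Abca1 run along the macrophage mean (r = 0.95 and 0.94), Gpnmb does not (r = 0.20), and Cd36 runs along the adipocyte mean (r = 0.97).

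Trem2 encodes the lipid-sensing receptor of macrophages and microglia (ENSMUSG00000023992.14, chr17:48346401-48354147, plus strand). It was at 1.71, 1.47, 1.60 and 2.17 CPM in C57BL/6J control replicates 1, 2, 3 and 5 and at 15.9, 8.68, 10.6 and 15.2 CPM with AngII. No AngII library came near the controls; the rise was 7.23-fold (log2 2.85 ± 0.43, adjusted p = 0.00011). 129S6/SvEvTac controls had 2.19, 1.49, 2.32 and 0.754 CPM and the AngII libraries 3.86, 1.14, 0.966 and 2.38 CPM. Those groups overlapped widely (log2 0.31 ± 0.41, adjusted p = 0.70). The difference of the effects was 2.55 ± 0.58 (adjusted p = 0.015), and 2.16 without C57BL/6J AngII replicates 1 and 5 together, where it no longer passed (adjusted p = 0.068). Control levels of Trem2 were close in the strains, at 1.74 CPM ± 0.31 in C57BL/6J and 1.69 ± 0.72 in 129S6/SvEvTac (SD, n = 4 each; log2 difference 0.04 ± 0.41, adjusted p = 0.97).

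Gpnmb encodes a lysosomal and cell surface glycoprotein that marks lipid-laden macrophages and is also made by melanocytes (ENSMUSG00000029816.10, chr6:49036546-49070929, plus strand). It was at 18.0, 25.7, 26.0 and 24.1 CPM in C57BL/6J control replicates 1, 2, 3 and 5 and at 11.1, 18.2, 34.5 and 31.2 CPM with AngII. The AngII libraries fell on both sides of the controls (log2 0.02 ± 0.29, adjusted p = 0.97). In 129S6/SvEvTac it was at 14.2, 22.7, 15.5 and 14.1 CPM in controls and at 15.99, 17.0, 22.9 and 12.8 CPM with AngII (log2 0.05 ± 0.29, adjusted p = 0.95). AngII replicate 1 of C57BL/6J, which had one of the highest macrophage means, had the lowest Gpnmb of all 16 libraries. Among the 8 genes Gpnmb was the only one whose C57BL/6J groups overlapped.

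Apoe encodes apolipoprotein E, the lipid carrier that accepts cholesterol (ENSMUSG00000002985.16, chr7:19696109-19699188, minus strand). C57BL/6J control replicates 1, 2, 3 and 5 had 112, 191, 81.0 and 65.7 CPM, and AngII libraries had 636, 285, 307 and 767 CPM. The groups did not overlap, and the rise was 4.44-fold (log2 2.15 ± 0.46, adjusted p = 0.0016); without AngII replicates 1 and 5 together it was 1.38 (adjusted p = 0.049). The 129S6/SvEvTac controls had 52.4, 60.9, 60.3 and 40.5 CPM and the AngII libraries 56.3, 162, 39.3 and 61.2 CPM. Replicate 2 alone carried the higher 129S6/SvEvTac mean: the log2 fold change was 0.57 ± 0.44 with it (adjusted p = 0.46) and -0.05 without it. The difference of the effects was 1.58 ± 0.62 (adjusted p = 0.12), and without that library it was 2.19 (adjusted p = 0.026), the only 1 of 16 single omissions that passed. Under 10 other settings it ran from 0.83 to 2.13 with adjusted p up to 0.52, and 1 of these passed.

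Abca1 encodes the transporter that loads cholesterol onto lipid-poor apolipoprotein A-I (ENSMUSG00000015243.4, chr4:53030787-53159895, minus strand). It was at 40.1, 58.7, 49.4 and 55.6 CPM in C57BL/6J control replicates 1, 2, 3 and 5 and at 125, 73.0, 88.5 and 168 CPM with AngII. The groups did not overlap, and the rise of 2.23-fold was the smallest of the 7 (log2 1.16 ± 0.26, adjusted p = 0.0024). That call was lost with the adipocyte mean as a covariate (0.78, adjusted p = 0.0997) and without C57BL/6J AngII replicates 1 and 5 together (0.65, adjusted p = 0.0695). Controls of 129S6/SvEvTac had 37.6, 40.2, 46.8 and 27.0 CPM and the AngII libraries 37.8, 29.1, 29.0 and 53.8 CPM, which overlapped (log2 -0.02 ± 0.26, adjusted p = 0.98). The difference of the effects, 1.17 ± 0.36, missed the threshold (adjusted p = 0.054) and passed it with DESeq2 (adjusted p = 0.014) and limma voom (adjusted p = 0.018). It passed under 5 of 10 other settings in all, where it ran from 0.68 to 1.39 with adjusted p up to 0.27.

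Abcg1 encodes the transporter that moves cholesterol to mature high-density lipoprotein (ENSMUSG00000024030.6, chr17:31057675-31117988, plus strand). C57BL/6J control replicates 1, 2, 3 and 5 had 3.15, 4.32, 3.85 and 4.54 CPM, and AngII libraries had 22.9, 10.4, 8.24 and 26.8 CPM. The groups did not overlap and replicates 1 and 5 were again highest (4.31-fold, log2 2.11 ± 0.43, adjusted p = 0.0013). With the adipocyte mean as a covariate the effect was 1.51 and did not pass (adjusted p = 0.066). In 129S6/SvEvTac the controls had 2.08, 1.32, 2.51 and 1.04 CPM and the AngII libraries 2.39, 4.47, 1.38 and 4.87 CPM, which overlapped (log2 0.92 ± 0.43, adjusted p = 0.19). The difference of the effects was 1.19 ± 0.60 (adjusted p = 0.23).

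**Figure D3:**
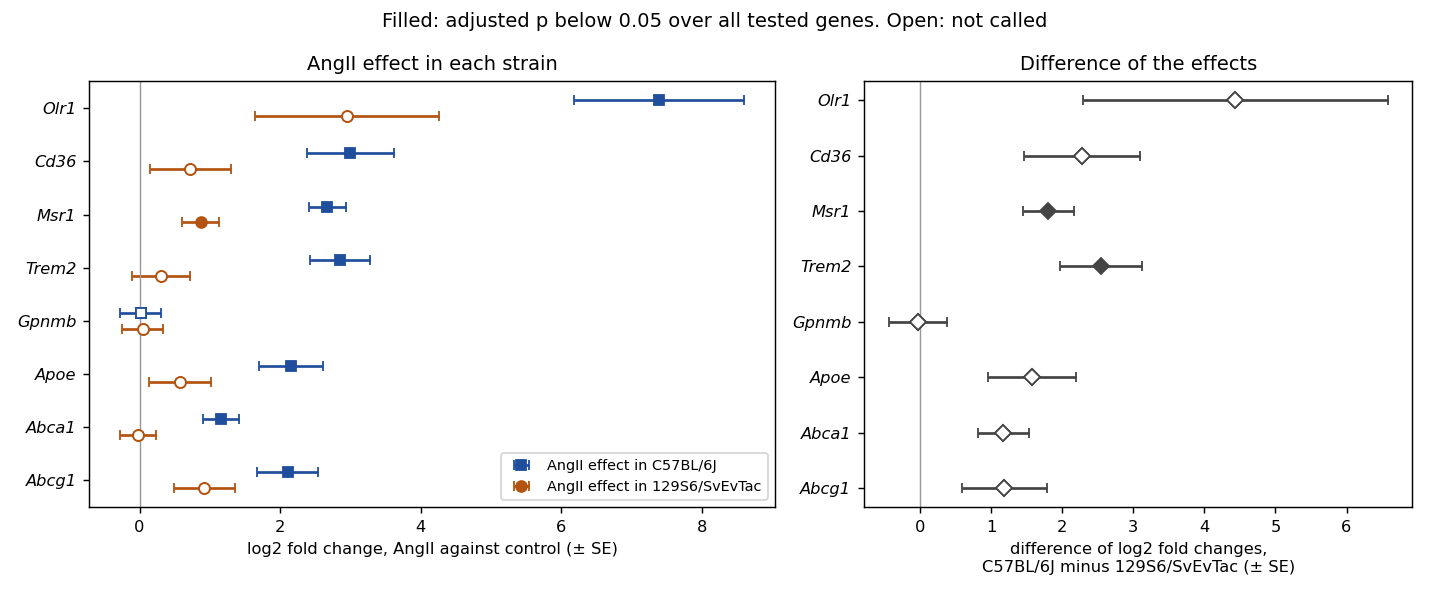
Left, log2 fold change of AngII against control with its SE in each strain; right, the difference of the effects, C57BL/6J minus 129S6/SvEvTac, with its SE (filled symbols: adjusted p below 0.05 over all tested genes). Msr1 and Trem2 are the filled points on the right, at 1.81 and 2.55, and Gpnmb lies at 0 in both panels.

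Per kilobase of exon, Apoe was the most abundant of the 8 in C57BL/6J controls, at 52.6 CPM per kb ± 26.0. Cd36 followed at 5.63 ± 1.77, Abca1 at 4.92 ± 0.79 and Gpnmb at 3.603 ± 0.57, and neighbours among these 3 differed by less than their SDs added. Abcg1, Msr1 and Trem2 were about an order of magnitude lower, at 0.543 ± 0.084, 0.472 ± 0.099 and 0.351 ± 0.062, and Olr1 was at 0.013 ± 0.025 (SD, n = 4 each). Each of the 8 genes had its highest group mean in C57BL/6J with AngII; for Gpnmb this mean differed from the control mean by far less than its SD. For Msr1 and Trem2 the means of the other 3 groups lay between 1.69 and 3.29 CPM.

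In controls, none of the 8 genes was called between the strains by edgeR (0 of 8, beside 5.35% of all genes higher and 5.06% lower in C57BL/6J). At an unadjusted p under 0.05 there were 4, with Msr1, Apoe and Abcg1 higher in C57BL/6J and Cd36 lower, and DESeq2 called 1 and limma voom 0. The C57BL/6J control libraries of Msr1, Apoe and Abcg1 all lay above those of 129S6/SvEvTac, as for 11.3% of all genes, with log2 differences of 0.72 ± 0.26, 1.07 ± 0.44 and 1.19 ± 0.43 (adjusted p = 0.095, 0.16 and 0.10). Cd36 was lower by -1.28 ± 0.58 (adjusted p = 0.20). With AngII, 6 of 8 were higher in C57BL/6J, beside 16.8% of all genes. Olr1 is among the 6, and its call was fixed in part by the count filter, which it passed only through C57BL/6J with AngII. The log2 differences of the 6 ran from 1.60 ± 0.26 for Abca1 (adjusted p = 0.00031) to 5.17 ± 1.03 for Olr1 (adjusted p = 0.0014), with Msr1 at 2.53 ± 0.26, Trem2 at 2.59 ± 0.42, Abcg1 at 2.37 ± 0.43 and Apoe at 2.65 ± 0.46. Single libraries moved 2 of these: Olr1 was 3.80 without C57BL/6J AngII replicate 2, and Apoe 3.26 without 129S6/SvEvTac AngII replicate 2. Cd36 at 0.998 ± 0.57 (adjusted p = 0.21) and Gpnmb at 0.47 ± 0.29 (adjusted p = 0.25) did not pass. Without C57BL/6J AngII replicates 1 and 5 together the strain difference of Cd36 turned to -0.67 (adjusted p = 0.40). The strain comparison with AngII uses the same AngII libraries as the effects above.

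Macrophage and fibroblast markers moved with most of the genes, and smooth muscle markers moved against them. The mean log2 CPM of the 10 fibroblast markers was 8.25 to 8.55 in C57BL/6J controls and 9.36 to 9.81 with AngII. In 129S6/SvEvTac it was 7.99 to 8.33 in controls and 8.28 to 9.21 with AngII. Of the 10, 7 rose in C57BL/6J and 4 in 129S6/SvEvTac, beside 21.8% and 7.71% of all genes called higher. Over the 16 libraries Olr1 had r = 0.87 with the fibroblast mean and 0.84 with the pan-macrophage mean, Msr1 0.89 and 0.96, and Trem2 0.88 and 0.95, as descriptions of libraries that share groups. With the smooth muscle mean r was -0.81 for Olr1, -0.92 for Msr1, -0.90 for Trem2, -0.87 for Apoe and Abca1, -0.88 for Abcg1, -0.61 for Cd36 and 0.02 for Gpnmb. Every r of Olr1 rests in part on control libraries with 0 counts, which share 1 floor value. The mean log2 CPM of the 14 pan-macrophage markers, Adgre1 and Csf1r among them, was 4.29 ± 0.18 in C57BL/6J controls, 6.15 ± 0.45 in C57BL/6J with AngII, 3.72 ± 0.34 in 129S6/SvEvTac controls and 4.04 ± 0.39 in 129S6/SvEvTac with AngII (SD, n = 4 each). No marker of the list was at 0 in all libraries. Each gene was therefore also expressed as its log2 CPM minus that mean in the same library, a description with no test. Trem2 moved from -3.48 ± 0.30 in C57BL/6J controls to -2.53 ± 0.20 with AngII, a gain of 0.94. Msr1 gained 0.82. Olr1 gained 4.50, but its control libraries with 0 counts sit at -4.74 log2 CPM, a floor set by the prior count, so this value is no measured gain. For Trem2 and Msr1 the AngII libraries all lay above the controls on this scale, as 2.03% of all genes did. For Msr1 the gap was narrow, with the lowest AngII library at -2.343 and the highest control at -2.361. The AngII libraries of Olr1 lay above its controls too, but this was set in part by that floor and by the count filter.

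The other 5 did not gain in this way on the pan-macrophage scale. There the C57BL/6J groups of Apoe, Abcg1 and Cd36 overlapped, with differences of 0.28, 0.08 and 0.70. Abca1 moved from 1.37 ± 0.28 to 0.61 ± 0.26 and Gpnmb by -1.964, with all AngII libraries below all controls, as for 78.5% of all genes. The reference mattered. Of the 8 resident macrophage markers (Lyve1, Folr2 and others), 4 rose and 2 fell in C57BL/6J, so their mean is no clean measure of these cells. Against that mean, Cd36 was higher by 2.02, Apoe by 1.60, Abcg1 by 1.40 and Abca1 by 0.56, so that Abca1 changed direction. Trem2 was higher by 2.27, Msr1 by 2.14 and Olr1, again set by the floor of its controls, by 5.82 on that scale. The groups of Gpnmb overlapped (-0.64). In 129S6/SvEvTac the differences on the pan-macrophage scale were 1.90 for Olr1 (set by the same floor), 0.43 for Msr1, -0.11 for Trem2, 0.50 for Abcg1 and 0.06 for Apoe. They were 0.32 for Cd36, -0.35 for Abca1 and -0.27 for Gpnmb, the last 2 in the same direction as in C57BL/6J. The part of macrophage, fibroblast or smooth muscle amount in the changes was not tested.

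**Figure D4:**
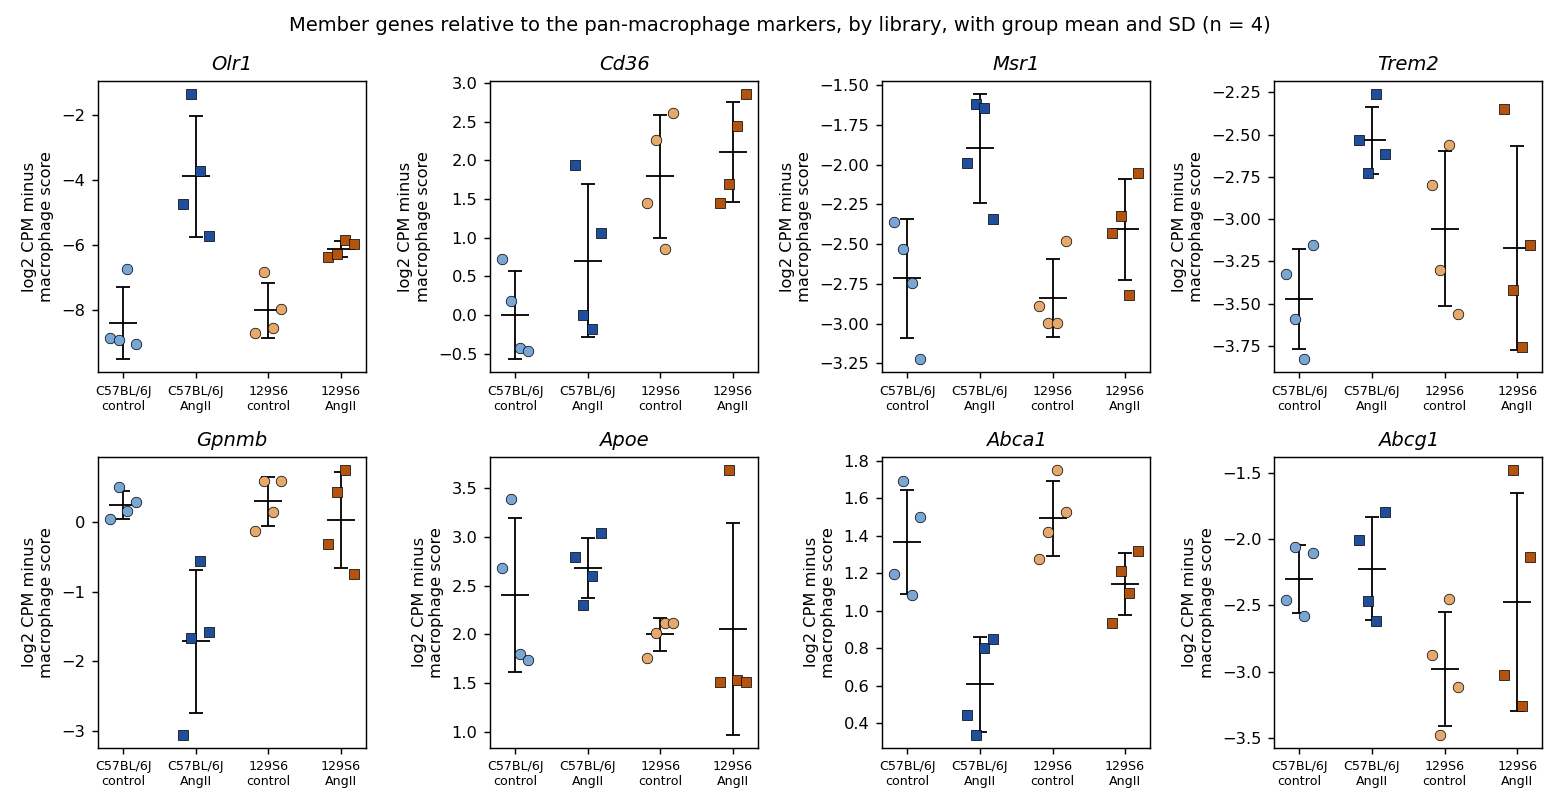
log2 CPM of each gene minus the mean log2 CPM of the 14 pan-macrophage markers in the same library (vertical axis), by group, with points for the 16 libraries. In C57BL/6J the AngII points of Olr1, Msr1 and Trem2 lie above the controls, those of Abca1 and Gpnmb below, and the others overlap.

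The genes whose levels most resembled each of the 8 over the 16 libraries were taken among 11146 protein-coding genes, by Pearson correlation of log2 CPM. Msr1 was closest to the immune receptor Lilr4b (r = 0.99, counts uncertain because exons are shared with another gene), the lysosomal protease Ctss (0.98) and the complement receptor C3ar1 (0.97). Trem2 was closest to the Fc receptor Fcgr2b (0.97, exons shared), Nrros (0.97) and Arhgap30 (0.97). Abca1 was closest to Pik3ap1 (0.96), Aif1 (0.96) and the macrophage lysozyme Lyz2 (0.95), and Abcg1 to Naip2, Slfn5 and Cd74 (0.95 each, the last 2 with shared exons). Cd36 stood with other genes: Cd300lg (0.98), Slc36a2 (0.97) and the adipocyte and myeloid factor Cebpa (0.97, exons shared). Olr1 was closest to the protease inhibitor Timp1 (0.97), the endothelial proteoglycan Esm1 (0.96) and Tmem45a (0.96). Apoe had Cachd1 (0.95), Madd (0.94) and Prkcb (0.94). No gene followed Gpnmb closely, the nearest being Llph (0.81), Kirrel (0.77) and Eid1 (0.76, exons shared).

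Other scavenger and lipoprotein receptors moved in both directions. Of 20 such genes 18 were tested, Marco and Stab2 having too few counts; 9 rose and 2 fell in C57BL/6J (median log2 fold change 0.42), beside 38.9% of all genes called in either direction. Those that fell were Vldlr and, named after its values were seen, the collectin Colec12 (-0.65 ± 0.18, adjusted p = 0.011). Scarb1, the high-density lipoprotein receptor, rose from 10.9 CPM ± 1.29 to 52.2 ± 25.5 (log2 2.25 ± 0.32, adjusted p = 6.7e-05). The lysosomal glycoprotein Cd68, also a pan-macrophage marker, rose by 2.51 ± 0.35, and the mannose receptor Mrc1, also a resident macrophage marker, from 38.5 to 140 CPM (1.87 ± 0.22). Cxcl16, a chemokine that binds oxidised lipoprotein, rose by 1.32 ± 0.15, with exons shared with another gene. Vldlr, the very-low-density lipoprotein receptor, fell in both strains, from 182 CPM ± 9.04 to 84.0 ± 26.6 in C57BL/6J (-1.12 ± 0.16, adjusted p = 8.6e-05) and from 160 ± 15.9 to 104.9 ± 5.43 in 129S6/SvEvTac (-0.61 ± 0.16, adjusted p = 0.022), where 2 of 16 single omissions ended the call. Vldlr was the only gene of the list called in 129S6/SvEvTac, where 12.2% of all genes were called. The effect differed between strains for 5 of 18, beside 9.96% of all genes; Mrc1 (1.62 ± 0.31, adjusted p = 0.0058) and the beta-glucan receptor Clec7a (2.65 ± 0.54, adjusted p = 0.0083) had the smallest p, and the other 3 were Scarb1, Cd68 and Cxcl16. Without C57BL/6J AngII replicates 1 and 5 together, 2 of 19 differed.

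Companion genes of lipid-associated macrophages rose in most cases in C57BL/6J: 17 of 20 rose and none fell (median 1.07), beside 21.8% of all genes called higher. Atp6v0d2, Cd9 and Psap did not pass. Spp1, the secreted phosphoprotein osteopontin, was at 0.836 CPM ± 0.499 in controls and 369 ± 353 with AngII (log2 8.76 ± 0.86, adjusted p = 3.6e-06), with exons shared with another gene. The galectin Lgals3 rose from 15.1 CPM ± 3.33 to 84.5 ± 10.7, the lysosomal acid lipase Lipa from 57.2 ± 2.17 to 121.9 ± 22.7, and the lysosomal protease Lgmn from 134 ± 5.12 to 316 ± 47.8. In 129S6/SvEvTac 5 of 20 rose (median 0.30), beside 7.71% of all genes called higher. They were Lgals3 from 25.3 CPM ± 3.90 to 89.1 ± 28.4 (1.81 ± 0.20, adjusted p = 7.0e-05), Spp1 (3.15 ± 0.73), Lipa (0.45 ± 0.10), and the cathepsins Ctsl (0.49 ± 0.08) and Ctsd (0.31 ± 0.09), both with shared exons. Some of these calls were lost under alternatives: Ctsd under 4 of 11 settings (down to 0.15, adjusted p = 0.34, with library size only) and 11 of 16 single omissions, Lipa with library size only (0.29, adjusted p = 0.085) and Spp1 with limma voom (3.05, adjusted p = 0.085). The effect was larger in C57BL/6J for 5 of 20, beside 5.34% of all genes. Lgmn (1.01 ± 0.13, adjusted p = 0.00085) and Spp1 (5.61 ± 1.03, adjusted p = 0.0050) led. With limma voom Spp1 was at 4.77 (adjusted p = 0.057). The others were Lipa and, named after their values were seen, Fabp5 and Capg. For Lgals3 a difference between the strains did not pass (0.67 ± 0.28, adjusted p = 0.15). With the adipocyte mean as a covariate, 11 of 20 rose in C57BL/6J.

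A list of 12 genes of TREM2 signalling and shedding had 10 that rose in C57BL/6J and none lower (median 1.88), beside 21.8% of all genes called higher. It holds adaptors and enzymes of the signal and the sheddases Adam10 and Adam17, which cleave TREM2 from the cell surface; Adam10 rose from 75.9 CPM ± 4.87 to 131 ± 6.36 and Adam17 from 46.2 ± 3.04 to 65.0 ± 15.4 (log2 0.79 ± 0.13 and 0.49 ± 0.13, both named after their values were seen). The kinase Syk rose from 12.8 CPM ± 2.32 to 55.7 ± 13.5 (log2 2.12 ± 0.20, adjusted p = 2.7e-06), the kinase Btk by 2.64 ± 0.33, the phosphatase Inpp5d by 2.02 ± 0.26 and the adaptor Lcp2, with shared exons, by 2.10 ± 0.31. Tyrobp, the adaptor that TREM2 needs for signalling, was named after its values were seen: it went from 10.98 CPM ± 2.17 to 41.0 ± 13.8 (1.90 ± 0.29, adjusted p = 0.00011). In 129S6/SvEvTac Syk (0.75 ± 0.19, adjusted p = 0.020) and Inpp5d (0.87 ± 0.25, adjusted p = 0.034) rose, 2 of 12 beside 7.71% of all genes. Neither was called when counts were scaled by library size only. Each call was lost under 3 of 11 settings, but the log2 fold change stayed positive, at 0.592 or more for Syk and 0.707 or more for Inpp5d. Single omissions ended the call of Syk in 4 of 16 cases and of Inpp5d in 7 of 16. The effects were larger in C57BL/6J for 5 of 12, beside 5.34% of all genes. Syk (1.37 ± 0.27, adjusted p = 0.0078) and Btk (2.05 ± 0.45, adjusted p = 0.012) led, with Lcp2 and, named after their values were seen, Tyrobp and Vav1 as the others. Without C57BL/6J AngII replicates 1 and 5 together, 1 of 12 differed. These kinases and adaptors are shared by many immune receptors, and the pan-macrophage markers rose in the same libraries.

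Regulators of cholesterol handling were mixed. Of 25 genes, 13 rose and 2 fell in C57BL/6J (median 0.41), beside 21.8% of all genes called higher and 17.1% lower. Nr1h2, which encodes the oxysterol receptor LXR-beta, fell from 56.9 CPM ± 3.702 to 38.2 ± 1.33 (-0.58 ± 0.08, adjusted p = 5.5e-05), and the lysosome and pigment cell factor Mitf fell from 28.6 ± 3.79 to 15.9 ± 3.64 (-0.85 ± 0.15). The LXR target Arl4c rose from 13.3 CPM ± 1.06 to 45.3 ± 4.06 in C57BL/6J (1.77 ± 0.11, adjusted p = 2.4e-07) and from 10.9 ± 1.61 to 17.7 ± 1.001 in 129S6/SvEvTac (0.69 ± 0.11, adjusted p = 0.00065). Soat1, which esterifies cholesterol for storage, rose in C57BL/6J from 28.4 CPM ± 1.33 to 44.4 ± 2.53 (0.64 ± 0.06) and was at 30.6 and 31.9 CPM in 129S6/SvEvTac (0.06 ± 0.06, adjusted p = 0.62). The LXR partner Rxra (-0.32 ± 0.10, adjusted p = 0.048) and the sterol hydroxylase Cyp27a1 (-0.60 ± 0.17, adjusted p = 0.034) fell in 129S6/SvEvTac, and single omissions ended these calls in 11 and 6 of 16 cases. The effect differed upward for 5 of 25, beside 5.34% of all genes. Arl4c (1.07 ± 0.15, adjusted p = 0.0011) and Soat1 (0.58 ± 0.09, adjusted p = 0.0020) led, and the others were Pltp, Npc1 and Nceh1, which were named after their values were seen. The effect differed downward for 1, Nr1h2 (-0.44 ± 0.11, adjusted p = 0.024), beside 4.62% of all genes. With the adipocyte mean as a covariate 6 of 25 rose and 5 fell in C57BL/6J, and without AngII replicates 1 and 5 together 8 rose and 4 fell.

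Cholesterol synthesis genes were called in 10 of 22 cases in C57BL/6J, a share near the 38.9% of all genes called in either direction. By direction the shares were less alike: 40.9% of the list was called higher and 4.55% lower, beside 21.8% and 17.1% of all genes. Of the 10, 9 rose and 1 fell, their regulator Srebf2 (log2 -0.38 ± 0.12, adjusted p = 0.021), named after its value was seen; the median over the list was 0.43. Hmgcs1 (0.87 ± 0.16) and Cyp51 (1.245 ± 0.24), both with shared exons, and the isomerase Ebp (0.45 ± 0.10, adjusted p = 0.0017) were among those that rose. In 129S6/SvEvTac edgeR called 0 of 22, beside 12.2% of all genes, with 1 at an unadjusted p under 0.05. DESeq2 and limma voom each called 0. The effect differed between strains for 0 of 22, beside 9.96% of all genes, with 5 at an unadjusted p under 0.05 and 1 each by DESeq2 and limma voom. Cyp51 (1.05 ± 0.34, adjusted p = 0.061) and Mvd (1.05 ± 0.41, adjusted p = 0.12) had the smallest p. With the adipocyte mean as a covariate 6 of 22 rose in C57BL/6J.

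**Figure D5:**
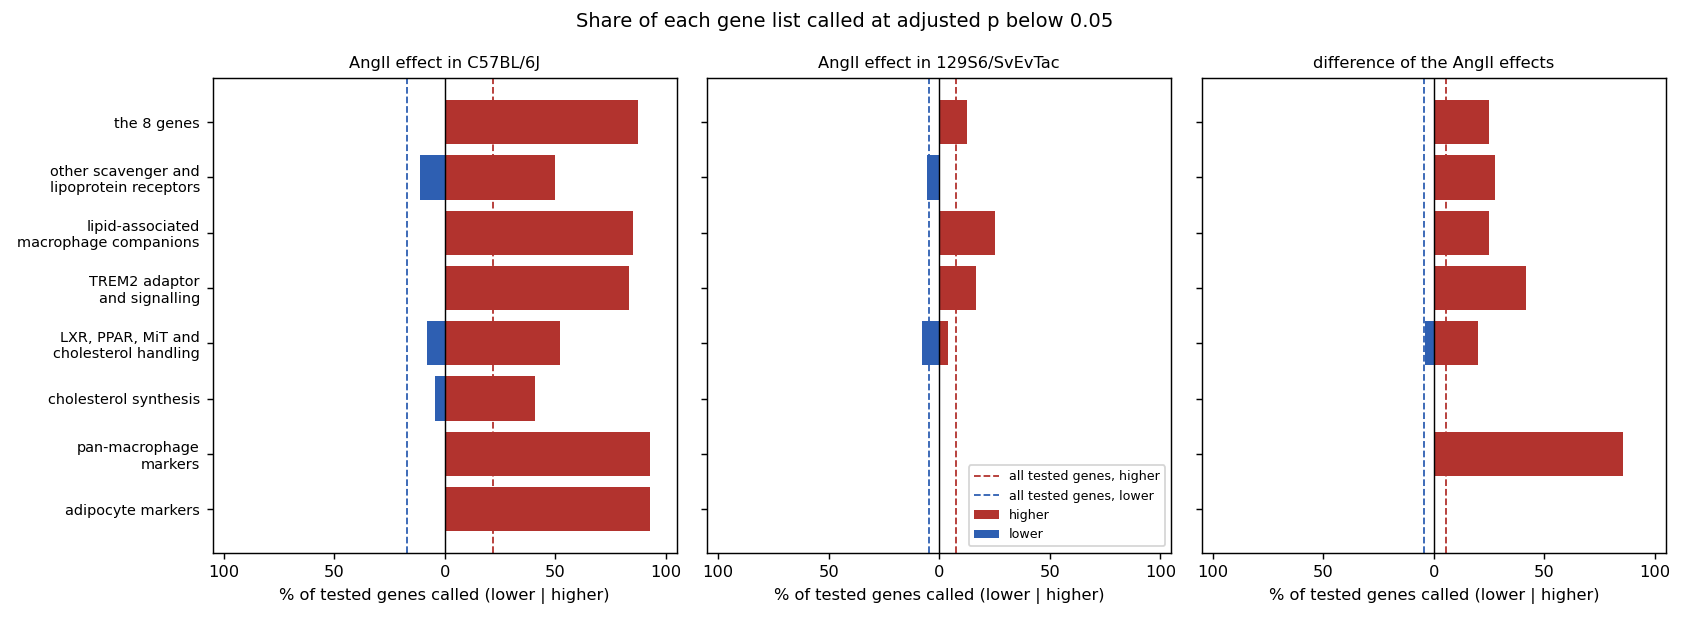
Percent of the tested genes of each list that were called higher (right, red) or lower (left, blue) for AngII in each strain and for the difference of the effects, with dashed lines for the same shares of all 17125 tested genes. In C57BL/6J the companion genes (17 of 20) and TREM2 signalling and shedding genes (10 of 12) lie highest among the 5 companion lists, and in 129S6/SvEvTac the companion genes (5 of 20) do.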

How the data were processed

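Whole descending thoracic aorta RNA was sequenced in 16 libraries, 4 in each of 4 groups. Per the labels' protocols, column-purified RNA was treated with DNase, HISAT2 aligned the reads to GRCm38, and StringTie estimated abundance on a Gencode annotation of a release that the sources used here do not name; they name no strandedness either. The authors deposited expected counts per gene, already whole numbers and not normalized. Genes that share exons are called uncertain. DESeq2 1.26.0 and R 3.6.2 appear in the submitters' processing notes without a role.

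Names, positions and exon lengths came from GENCODE M21 (GRCm38), which named 52489 of 52636 genes; the other 147 held at most 0.0431% of counts. No replicates were identical (lowest chi-square per degree of freedom 37.6). Tests used edgeR 4.0.16 in R 4.3.3. Genes kept by filterByExpr (minimum count 10) numbered 17125. They were scaled by TMM and fitted with a robust quasi-likelihood model, 1 mean per group over all 16 libraries, and p-values were adjusted by Benjamini-Hochberg over all 17125 genes; a call is an adjusted p below 0.05. SE is the absolute log2 fold change divided by the square root of F. CPM uses TMM-adjusted totals, and log2 CPM a prior count of 2. Totals were at least 42116120 counts, but counting error depends on each gene's own counts: besides Olr1, single 129S6/SvEvTac libraries held as few as 34 counts of Trem2, 47 of Abcg1 and 74 of Msr1.

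The members and all lists were chosen with earlier results of these data known. Named list genes were up to 4 with the smallest p in C57BL/6J and up to 2 in the difference of effects, plus those called in 129S6/SvEvTac where 5 or fewer (1 gene that the rule names is not reported here); the 3 genes most alike each member needed 5 CPM in the highest group. RefSeq (GRCm38.p6) promoter windows were matched by symbol. Alternatives were DESeq2 1.42.0, limma 3.58.1 voom, other scalings and filters, fits to the compared groups, a replicate block, an adipocyte covariate and leaving out libraries; the scripts were tested on simulated counts. The replicate numbers were not used to pair libraries.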

Additional observations from a re-analysis of the deposited data

Results flagged for a closer look

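In groups of 4, a library was marked where its gap to the nearest other exceeded the share of the group's range that Dixon's test allows. Of 32 combinations of gene and group, 4 had such a library, and chance marks about 1 in 20. Olr1 stood at 22.3 CPM in C57BL/6J AngII replicate 2, where the others had 1.73 to 3.79. Its other 2 marks are groups with counts in a single library: 0.1804 CPM in C57BL/6J control replicate 3 and 0.09406 CPM in 129S6/SvEvTac control replicate 2. Gpnmb stood at 22.74 CPM in 129S6/SvEvTac control replicate 2, where the others had 14.1 to 15.5. The AngII effects of Msr1 and Trem2 differed between the strains by the interaction term, by 1.805 and 2.546 on the log2 scale (edgeR quasi-likelihood adjusted p = 0.0078 and 0.015). Both differences passed in all 16 fits that left out 1 library, with adjusted p up to 0.018 and 0.034.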

How the results depend on the processing

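No result of the 8 genes that passed the threshold changed sign under any alternative run. The C57BL/6J calls of all 7 genes held in each of the 16 fits that left out 1 library. Msr1 in 129S6/SvEvTac, the 1 call of the 8 there, became 0 of 8 with library size only, with no filter, with only the groups compared, with the replicate block, with the adipocyte covariate and with either pair of libraries left out; leaving out single libraries gave 0 to 1. For the difference of effects, 4 of 8 were called with DESeq2 and 4 with limma voom, 1 without C57BL/6J AngII 1 and 5, and 2 to 4 without single libraries. In controls the strains differed in 1 of 8 with DESeq2, 3 with only the groups compared, 1 with the adipocyte covariate, 1 without C57BL/6J AngII 1 and 129S6/SvEvTac AngII 5, and 0 to 1 without single libraries. The causes were not tested. Both pairs left out were chosen after seeing the data.

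Over all genes, the difference of effects gave 1706 calls, with 2685 by DESeq2, 2670 by voom, 1081 with the adipocyte covariate, 1049 and 1027 with the pairs left out, and 1039 (without 129S6/SvEvTac control 2) to 2990 (without C57BL/6J AngII 3) in single omissions. Voom gave 3324 calls for AngII in 129S6/SvEvTac against 2087, and 3209 for the strains in controls against 1783, where the fit to only the groups compared gave 2772. With library size as the only scaling, the median log2 effect of all genes in 129S6/SvEvTac went from 0.0027 to -0.16 and the share of calls that were higher from 63.3 to 25.2%, in C57BL/6J from 56.1 to 45.4%, and for the difference from 53.6 to 65.2%. Libraries with the same replicate number shared little (r from -0.06 to 0.145 over 7 pairs, 3 of them best with their own number), so the replicate block is given only here: it called 1426 genes in 129S6/SvEvTac and 6175 in C57BL/6J, 0 and 7 of the 8.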
